A study of Mus musculus with 10 samples.

Results

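Peg3 and 9 other imprinted genes that act on growth were followed in the skin of BALB/c mice, all female and 10 to 11 weeks old. All mice had a 5% cream of imiquimod, which activates the receptor TLR7 of innate immunity and produces psoriasis-like inflammation, on shaved back skin daily for 5 days. In one group the dopamine receptor D2 agonist quinpirole was also injected into the peritoneum 5 times, and the other group is labelled vehicle. Total RNA of whole skin was sequenced from 5 samples per group, and skin without imiquimod was not analysed here. The 10 genes are Peg3, Usp29, H19, Dlk1, Plagl1, Mest, Cdkn1c, Grb10, Meg3 and Ndn, taken by symbol from a table of 17016 genes. The set was chosen from the comparison of quinpirole with vehicle itself, because Peg3 had lower values with quinpirole, so the differences between the groups in these genes are given as a description with no p-value. Their standard errors, intervals and calls in the fit over all genes are likewise descriptive. Of the 10, 8 were found and all 8 passed the filter of 1 CPM (read counts normalised to library size) in at least 5 libraries, as did 14548 genes in all. Usp29 and Dlk1 were looked for by symbol and synonym, were not among the 17016, and are not analysed here.

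Imprinted genes are expressed mainly or only from the copy inherited from one parent, a choice set by DNA methylation laid down in the egg or the sperm. They lie in clusters in which a methylated control region governs several genes, often together with a long non-coding RNA. Many of them act on growth before birth, with genes expressed from the paternal copy tending to promote growth and genes expressed from the maternal copy tending to restrain it. A group of them, among them Plagl1, H19, Igf2, Dlk1, Cdkn1c, Mest and Grb10, is often described as an imprinted gene network because its members are expressed together in growing tissues and lose expression after birth. In adult skin and muscle, PW1, the zinc finger protein encoded by Peg3, marks populations of stem and progenitor cells. The mice are of one inbred strain, so the values sum both parental copies and say nothing of which copy was read.

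Peg3 and Usp29 start close together and are transcribed in opposite directions, and the stretch between them is printed because Peg3 is the gene on which the set was chosen and Usp29 its partner at that start. In RefSeq on GRCm38 the start of Peg3 lies at 6730419 and that of Usp29 at 6730583 of chromosome 7, 164 bases apart. The 146 bases between the 2 gene models are chr7:6730432-6730577, read here 5′ to 3′ on the minus strand, the strand of Peg3, with each CG, the pair of bases at which DNA is methylated, in capitals.
Peg3-Usp29: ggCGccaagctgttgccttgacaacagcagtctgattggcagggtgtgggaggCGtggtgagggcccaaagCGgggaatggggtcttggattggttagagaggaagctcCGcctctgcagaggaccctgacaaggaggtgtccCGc
This stretch holds 5 CG and its GC content is 61.6%. The window of 250 bases before to 50 after the Peg3 start holds 13 CG, where the median of 32851 such windows is 7. Fewer CG than in the Peg3 window were found in 62.1% of them, so its count is not unusual. Just inside Usp29 stand 2 short motifs, shown in capitals with the bases around them. The first, TGACGTCA, is the cAMP response element, bound by CREB and related factors, at chr7:6730579-6730608, minus strand, 171 bases before the Peg3 start. The second, GGGGCCCC, is the core that the protein of Plagl1, known as ZAC1, is known to bind, at chr7:6730602-6730631, minus strand, 194 bases before it.
CRE: actgactccgtTGACGTCAactccgtgcct
ZAC1 core: gactctgcttgGGGGCCCCtaacactgact
TGACGTCA is present in 1.79% of all 32851 windows and GGGGCCCC in 1.08%, and both read the same on the 2 strands. RefSeq windows were at hand for 8 of the 10 genes. GGGGCCCC occurs in those of Peg3 and Usp29, which share it, and TGACGTCA in those of Peg3, Usp29 and Meg3. The Meg3 copy lies 50 bases before its start, at chr12:109540928-109540957, plus strand.
CRE, Meg3: gcagaatgcgcTGACGTCAaagaccacccc
Both motifs were picked after the Peg3 window had been read. These matches are letters in a reference sequence, and binding was not measured.

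Reads assigned to genes ranged from 6763367 to 8361877 per library, so 1 read was worth 0.119 to 0.146 CPM. By limma, 3 of 14548 genes were called between quinpirole and vehicle (0.0206%), by edgeR's quasi-likelihood test 5 (0.0344%) and by DESeq2 219 (1.51%), and the groups did not overlap for 320 genes (2.20%). The summed level of 11 keratinocyte markers was 15373 to 24757 CPM and that of 16 dermal fibroblast markers 5377 to 8749 CPM over all libraries, led by Krt14 (mean 8512 CPM) and Col3a1 (2223 CPM). Single fibroblast markers were low, such as Sfrp2 at a mean of 1.73 CPM. The libraries differed widely in their content of hair and muscle transcripts. The summed level of 16 hair shaft genes ran from 4.33 to 1374 CPM in vehicle and from 4.07 to 1468 with quinpirole, and that of 18 skeletal muscle genes from 694 to 2501 and from 1421 to 6703. In whole tissue, fewer cells of a type and less RNA per cell cannot be told apart. The labels do not say that each sample had its own mouse, and the p-values thus cover only the variation among these samples, which may be technical.

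Peg3 was lower with quinpirole on average and H19 was higher, while the other 6 genes measured showed smaller differences in both directions. Taken as log2 of CPM plus 1, 4 of the 8 genes had a value above 0 and 4 below, and their median was 0.08, against -0.0021 over all genes tested. None of the 8 was called by limma or edgeR, and none separated the groups fully. DESeq2 called 2, Peg3 and H19, against a background of 1.51%, and since the set was chosen on this comparison nothing is read from that count. Levels were also compared per kilobase of exon, with the exons of all annotated transcripts of a gene merged. That length ran up to 18.1 kilobases in Meg3 and was 2.46 in H19, so the order depends on the annotation. On this measure H19 had the highest level over all libraries at 15.9 CPM per kilobase. Grb10 followed at 5.78, Cdkn1c at 3.12, Peg3 at 2.32, Ndn at 1.87, Plagl1 at 1.52, Meg3 at 1.37 and Mest at 1.26. The place of Peg3 differed by group, at 3.29 CPM per kilobase in vehicle, above Cdkn1c at 2.80, and at 1.34 with quinpirole, below Ndn at 2.21 and Plagl1 at 1.62.

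**Figure D1:**
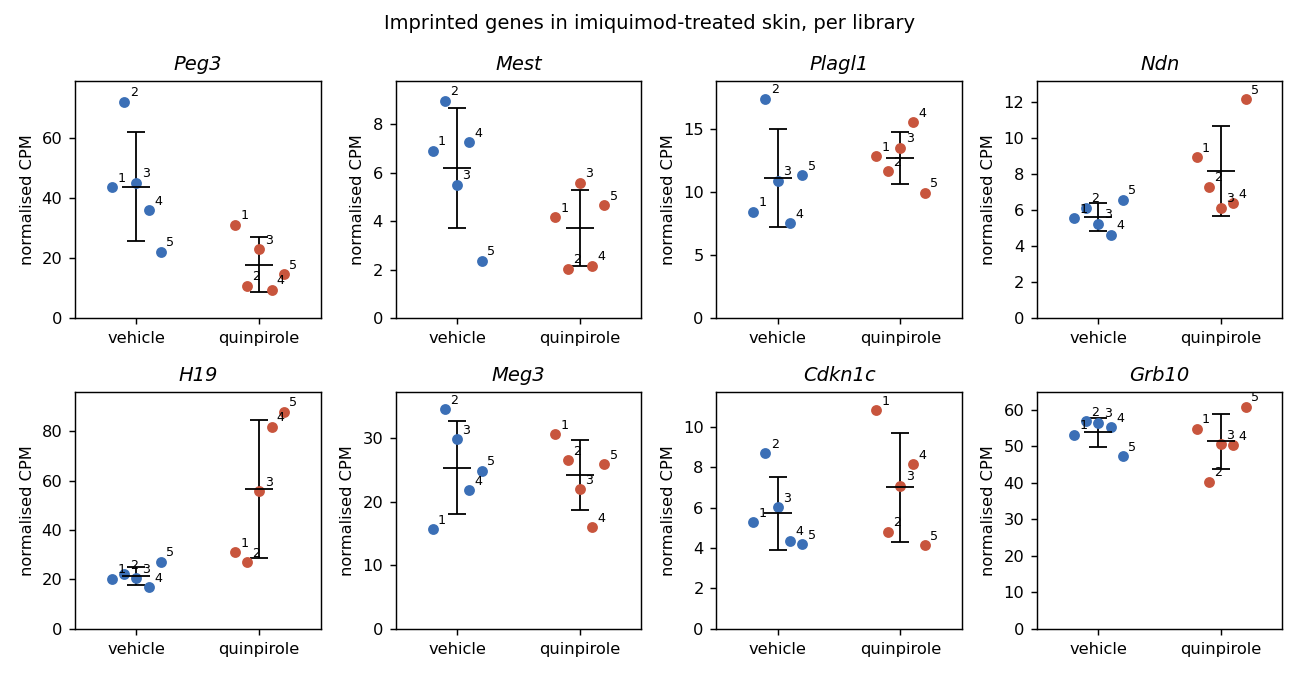
Normalised CPM (vertical axis, linear, from 0) of the 8 measured imprinted genes in 5 vehicle (blue) and 5 quinpirole (red) libraries. Each point is a library with its replicate number, and bars give the mean and SD. Peg3 means are 43.9 and 17.8 CPM, H19 means 21.4 and 56.7, and in none of the 8 panels do the groups separate fully.

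Among the genes expressed from the paternal copy, Peg3 encodes a zinc finger protein that has been linked to cell survival, to muscle stem cells and to maternal care. Peg3 is protein-coding and spans 6703892 to 6730431 of chromosome 7 (minus strand). Its level was 43.8, 72.2, 45.2, 36.1 and 22.2 CPM in vehicle replicates 1 to 5, and 31.2, 10.8, 23.0, 9.54 and 14.6 CPM in quinpirole replicates 1 to 5. Vehicle replicate 2 stood highest, and vehicle replicate 5 fell within the quinpirole range, below quinpirole replicates 1 and 3, so the groups overlapped. The means were 43.9 ± 18.3 and 17.8 ± 9.13 CPM (SD, n = 5 each), 2.46-fold lower with quinpirole, from 1632 and 693 reads. The log2 fold change was -1.29 (SE 0.34, 95% interval -2.03 to -0.54). Over 22 other fits of these same libraries it ran from -1.52, without quinpirole replicate 1, to -0.76, with the mean level of the skeletal muscle genes as a covariate. It was -0.92 with the mean level of the hair shaft genes as a covariate and -1.47 with that of the dermal fibroblast genes. As Peg3 was chosen on this difference, the refits are a description and lend it no support. Endothelial marker genes were also lower on average, 7 of 8 with log2 fold changes below 0 and a median of -0.47, and 0 were called by limma, edgeR or DESeq2 (3 had an unadjusted p under 0.05 by limma, where 11.4% of all genes tested did). Their summed level was 158 to 322 CPM in vehicle and 130 to 250 CPM with quinpirole, with none of the 8 at 0, and their part in the Peg3 values was not tested. The endothelial mean log2 level was 5.10, 4.33, 4.15, 4.87 and 4.88 in vehicle replicates 1 to 5. With quinpirole it was 4.14, 3.93, 4.26, 4.18 and 4.73. The median log2 fold changes of the keratinocyte, Schwann cell, dermal fibroblast, adipocyte and leukocyte lists lay between 0.01 and 0.17.

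Mest encodes a protein of the alpha/beta hydrolase fold that is abundant in the embryonic mesoderm and in expanding fat tissue. Mest spans 30723547 to 30748465 of chromosome 6 (plus strand) and codes for protein, as do the other genes of the set save H19 and Meg3. Mest measured 6.92, 8.97, 5.50, 7.26 and 2.38 CPM in vehicle replicates 1 to 5, and 4.16, 2.04, 5.59, 2.16 and 4.65 CPM with quinpirole. Vehicle replicate 5, the lowest of its group for Peg3, was also the lowest for Mest and lay at the level of quinpirole replicates 2 and 4. The means were 6.21 ± 2.47 and 3.72 ± 1.57 CPM (SD, n = 5 each) and the log2 fold change -0.59, with a 95% interval from -1.26 to 0.08. It was -0.22 with the muscle covariate, -0.34 with the hair covariate and -0.83 with the dermal fibroblast covariate.

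Plagl1 encodes ZAC1, a zinc finger transcription factor that activates other imprinted genes and restrains the cell cycle. The gene spans 13060504 to 13131694 of chromosome 10 (plus strand). Its level was 8.42, 17.4, 10.9, 7.53 and 11.3 CPM in vehicle and 12.8, 11.7, 13.5, 15.5 and 9.95 CPM with quinpirole. The quinpirole libraries all fell inside the vehicle range, which vehicle replicate 2 stretched upward. Plagl1 had a log2 fold change of 0.22 (95% interval -0.22 to 0.65). It ran from 0.10 without vehicle replicate 4 to 0.38 without vehicle replicate 2.

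Ndn encodes necdin, a MAGE family protein that restrains cell division, and lies in the region of chromosome 7 that matches the human Prader-Willi region, at 62346569 to 62350262 (plus strand). Its level was 5.53, 6.12, 5.24, 4.62 and 6.57 CPM in vehicle, and 8.92, 7.28, 6.13, 6.36 and 12.1 CPM with quinpirole. Vehicle replicate 5 lay above quinpirole replicates 3 and 4, and quinpirole replicate 5 stood highest. The log2 fold change of Ndn was 0.44 (SE 0.18, 95% interval 0.05 to 0.83), and it lay between 0.29 and 0.54 over the 22 alternatives. With the muscle covariate it was 0.43, with the hair covariate 0.45 and with the dermal fibroblast covariate 0.38.

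Among the genes expressed from the maternal copy, H19 is a long non-coding RNA and a precursor of microRNA that opposes the growth factor gene Igf2 in the same domain. It is abundant in the embryo and, after birth, in skeletal muscle. H19 spans 142575529 to 142578143 of chromosome 7 (minus strand). Its level was 20.4, 22.1, 20.4, 16.9 and 27.3 CPM in vehicle and 31.0, 26.9, 55.7, 81.8 and 87.8 CPM with quinpirole. The vehicle libraries were close together, whereas quinpirole replicate 2 lay near the top of their range, replicate 1 just above it and replicates 3, 4 and 5 far above it. The groups overlapped through quinpirole replicate 2 alone, which fell below vehicle replicate 5. The means were 21.4 ± 3.78 and 56.7 ± 28.03 CPM (SD, n = 5 each), 2.65-fold higher with quinpirole, from 796 and 2178 reads. This gave a log2 fold change of 1.23 (SE 0.30, 95% interval 0.56 to 1.89). It was 0.55 with the muscle covariate, the 1 value of 176 over the 8 genes and 22 alternatives that moved by more than 1 SD between replicates. With the hair covariate it was 1.13 and with the dermal fibroblast covariate 1.34.

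Cdkn1c encodes p57, an inhibitor of cyclin-dependent kinases that holds cells out of the cycle. Cdkn1c spans 143458339 to 143461050 of chromosome 7 (minus strand). Its level was 5.28, 8.69, 6.03, 4.36 and 4.19 CPM in vehicle and 10.8, 4.81, 7.09, 8.14 and 4.13 CPM with quinpirole. Both groups covered much the same range. On the log2 scale the difference was 0.23 (95% interval -0.31 to 0.76), from 0.069 without quinpirole replicate 1 to 0.40 with the hair covariate.

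Grb10 encodes an adaptor protein that binds the insulin and IGF1 receptors and dampens their signal. Expressed from the maternal copy in most tissues, it spans 11930508 to 12038683 of chromosome 11 (minus strand). Its level was 53.2, 56.8, 56.5, 55.2 and 47.3 CPM in vehicle and 54.8, 40.3, 50.6, 50.2 and 60.8 CPM with quinpirole. Grb10 varied least of the 8, with means of 53.8 ± 3.92 and 51.4 ± 7.502 CPM (SD, n = 5 each). For Grb10 the log2 fold change was -0.07, with a 95% interval from -0.31 to 0.16. Its sign turned without quinpirole replicate 2, where the value was 0.0074.

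Meg3 is a long non-coding RNA of the domain of chromosome 12 that also holds Dlk1, and spans 109541001 to 109571726 (plus strand). Its level was 15.7, 34.6, 29.9, 21.8 and 24.9 CPM in vehicle and 30.7, 26.5, 21.9, 16.02 and 26.0 CPM with quinpirole, so the ranges nearly coincided. On the log2 scale Meg3 differed by -0.05 (95% interval -0.51 to 0.42). The sign held in 17 of the 22 alternatives, and the value ran from -0.20 without vehicle replicate 1 to 0.23 with the muscle covariate.

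The choice of the set used the difference between the groups but not how the genes varied among libraries of the same group, so that variation was examined with the mean of each group subtracted. The marker lists were, however, chosen with earlier results of these data known, so the p-values of these relations are not an independent test. There were 31 relations in this family, Peg3 with each of the other 7 genes and each of the 8 genes with the mean log2 level of dermal fibroblast, skeletal muscle and hair shaft genes. Hair shaft genes encode the keratins and keratin-associated proteins of the growing hair, and muscle genes come from the muscle layer under the skin of the back. One relation of the 31 was called, that of Peg3 with the hair shaft genes. Over 10 libraries Pearson's r was 0.95 (permutation p = 0.00035, adjusted 0.0109) and Spearman's rho 0.96 (permutation p = 0.00025, adjusted 0.00775). Without the 2 libraries farthest from the median of the hair level, r was 0.87. How many of all genes tested followed the hair shaft genes this closely was not counted, so the relation may be shared by many. The main axis of variation among the libraries over all genes tested, the first principal component, held 47.7% of the variance. Its tie to hair content was not tested.

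The hair shaft mean was 5.13, 5.95, 6.05, 2.91 and 0.27 on the log2 scale in vehicle replicates 1 to 5, and 6.21, 0.37, 3.71, 0.24 and 2.28 with quinpirole. Vehicle replicate 5 and quinpirole replicates 2 and 4, with almost no hair shaft RNA, were the libraries with the lowest or next to lowest Peg3 of their group. In these libraries Peg3 measured 22.2 CPM in vehicle replicate 5 and 10.8 and 9.54 CPM in quinpirole replicates 2 and 4. Where hair shaft RNA was high, Peg3 measured 31.2 CPM in quinpirole replicate 1 and 43.8 to 72.2 CPM in vehicle replicates 1, 2 and 3. In between, it measured 36.1 CPM in vehicle replicate 4 and 23.0 and 14.6 CPM in quinpirole replicates 3 and 5. Vehicle replicate 4 thus lay above quinpirole replicate 1, the library with the highest hair shaft mean. The libraries low and high in hair shaft RNA were picked out after their values were seen, and so few cannot tell hair content from treatment. The part of hair content in the Peg3 difference was not tested beyond the covariate value of -0.92 given above. Both groups covered nearly the whole range of the hair shaft mean. All 16 of its genes had log2 fold changes below 0 between the groups, with a median of -1.60, and 0 were called by limma, edgeR or DESeq2, with 0 at an unadjusted p under 0.05. Leaving out a single library kept r between 0.92 and 0.97. The adjusted permutation p then passed 0.05 without vehicle replicate 4 (0.0543) or 5 (0.0995) and without quinpirole replicate 1 (0.0502), 3 (0.0589) or 5 (0.0595).

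**Figure D2:**
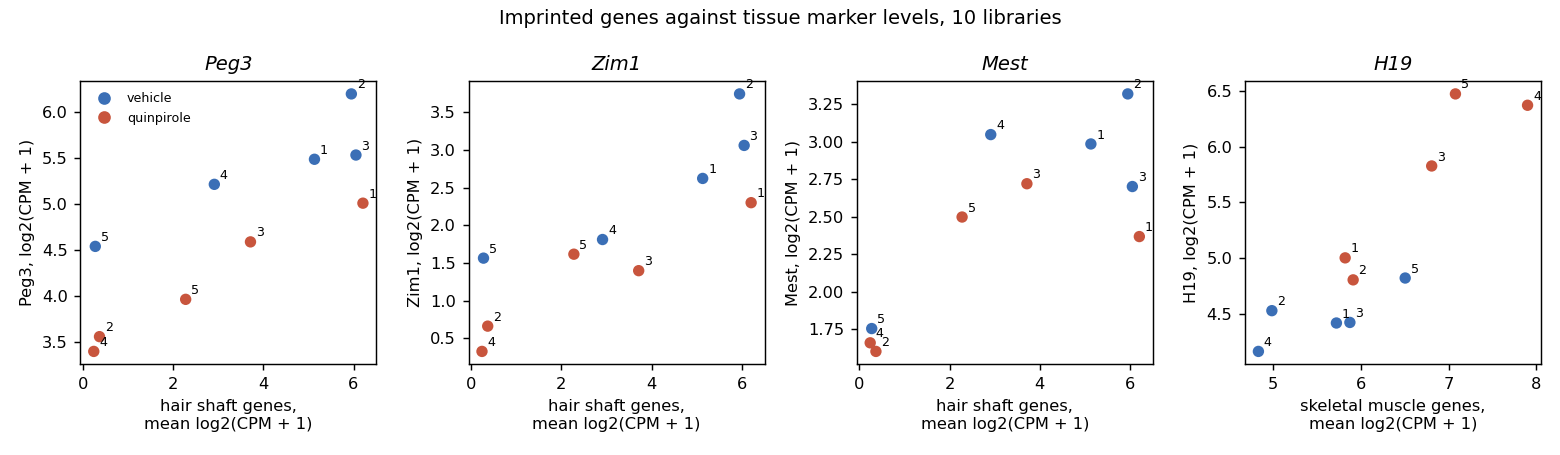
Peg3, its neighbour Zim1 and Mest against the mean log2(CPM + 1) of 16 hair shaft genes, and H19 against that of 18 skeletal muscle genes, in 10 libraries (vehicle blue, quinpirole red, numbered by replicate; both axes log2). Peg3 climbs with the hair level in both groups, with r = 0.95 after subtraction of the group means, and the 3 quinpirole libraries with the highest H19 are those with the highest muscle level.

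The other relations did not pass after adjustment, H19 and Mest coming nearest. H19 ran with the skeletal muscle genes at r = 0.83 (permutation p = 0.00601, adjusted 0.0932) and rho = 0.85 (permutation p = 0.0124, adjusted 0.192), and r was 0.73 without the 2 farthest libraries. The muscle mean was 5.72, 4.99, 5.88, 4.83 and 6.51 in vehicle and 5.82, 5.91, 6.81, 7.90 and 7.08 with quinpirole. Quinpirole replicates 3, 4 and 5, with the most muscle RNA, held the most H19, and vehicle replicate 5, the vehicle library with the most muscle RNA, held the most H19 of its group. All 18 muscle genes had log2 fold changes above 0, with a median of 1.17, though limma called 0, edgeR 0 and DESeq2 3. Of the 18, 13 had an unadjusted p under 0.05, against 11.4% of all genes tested, and for 2, or 11.1%, the groups did not overlap, against 2.20%. The DESeq2 count stands against a background of 1.51%. The part of muscle content in the H19 difference was not tested beyond the covariate value of 0.55 given above. Of 7 listed markers of muscle stem cells, Pax7, the defining one, was not among the symbols, and the summed level of the other 6 was 11.7 to 30.8 CPM in vehicle and 14.9 to 22.7 CPM with quinpirole. Most of that sum was Vcam1, which other cells also express, at a mean of 14.0 CPM, and Chodl, at 2.87 CPM, was the other marker that passed the filter. Myog, below the filter, averaged 0.453 CPM in vehicle and 1.13 CPM with quinpirole (17 and 44 reads). Cdh15 averaged 0.538 and 0.646 CPM and Myf5 0.160 and 0.156 CPM, in the same order. Myod1, below the filter, measured 0 to 0.280 CPM in vehicle (5 reads in all) and 0.517 to 1.02 CPM with quinpirole (25 reads). Its groups did not overlap, but no library held more than 8 of its reads. The background of 2.20% covers only genes that passed the filter, so no share is at hand for Myod1. Both markers tested, Vcam1 and Chodl, had log2 fold changes below 0, whereas Myog, Cdh15 and Myod1, too low to test, had higher means with quinpirole.

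Mest ran with Peg3 at r = 0.81 (permutation p = 0.0134, adjusted 0.139; rho = 0.66, permutation p = 0.0577, adjusted 0.298; r = 0.82 without the 2 farthest libraries). With the hair shaft genes it ran at r = 0.75 (permutation p = 0.0227, adjusted 0.176; rho = 0.53, permutation p = 0.15, adjusted 0.358; r = 0.64 without the 2 farthest). Peg3 and H19, the genes with the largest group differences, had r = -0.30 (permutation p = 0.445, adjusted 0.703; rho = -0.27, permutation p = 0.490, adjusted 0.778), which turned to 0.18 without the 2 farthest libraries. Leaving out single libraries moved it between -0.69, without quinpirole replicate 2 (adjusted permutation p = 0.214), and -0.04, without quinpirole replicate 1 (0.963), so its size rested on single libraries. The remaining members of the family had adjusted p-values of 0.216 or more for r.

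Genes whose level followed that of Peg3 most closely were sought among 11581 tested genes of at least 5 CPM, as a description without a test. The 10 highest values of r, between 0.97 and 0.98 over the 10 libraries with group means subtracted, belonged to Sox13, Serinc5, Tenm3, Krtap1-4, Igfbp4, Ncald, Chd6, Krtap1-3, Thbs4 and Ttyh3. Krtap1-3 and Krtap1-4 encode proteins of the hair shaft, and Igfbp4 encodes a secreted protein that binds IGF1 and IGF2. Krtap1-4 was listed at 0 in vehicle replicate 5 and in quinpirole replicates 2 and 4 and at 44.7 CPM in vehicle replicate 2. Igfbp4 spanned 35.5 CPM in quinpirole replicate 4 to 125 CPM in vehicle replicate 2. The 3 libraries in which Krtap1-4 was listed at 0 are those with the lowest hair shaft means.

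**Figure D3:**
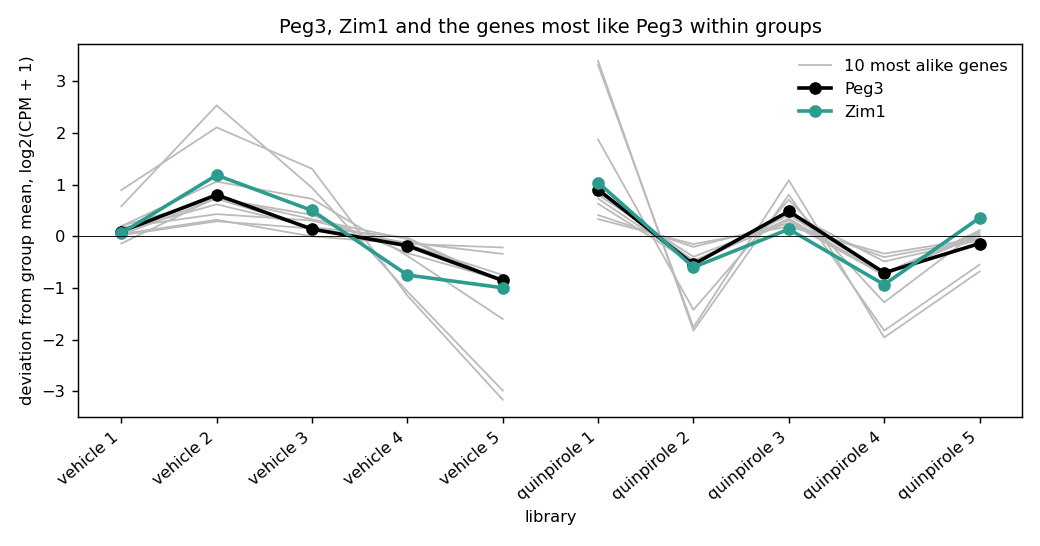
Deviation from the group mean on the log2(CPM + 1) scale (vertical axis) in each library (horizontal axis) of Peg3 (black), Zim1 (green) and the 10 genes most like Peg3 (grey). Lines join libraries of a group for reading only, as replicates have no order. Peg3 and Zim1 share the high of vehicle replicate 2 and quinpirole replicate 1 and the low of vehicle replicate 5 and quinpirole replicate 4.

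The neighbours of the 8 genes in their imprinted domains come from a list of 62 other imprinted genes. Of these, 52 were in the table and 42 were tested, 15 with log2 fold changes above 0 and 27 below. Their median was -0.02, beside -0.0021 for all genes. By limma 0 of the 42 were called, with adjusted p from 0.229 to 0.998, and 6 had an unadjusted p under 0.05, where 11.4% of all genes tested did. By edgeR and DESeq2 0 were called as well. The groups separated fully for 1 of the 42, or 2.38%, next to the background of 2.20%. That gene was Ascl2, a neighbour of Cdkn1c that encodes a transcription factor of the placenta and of intestinal stem cells. It averaged 1.497 ± 0.27 CPM in vehicle and 2.61 ± 0.44 CPM in the quinpirole group (SD, n = 5 each), from 56 and 99 reads. Its log2 fold change was 0.53 (SE 0.15, limma adjusted p = 0.229), which did not pass the test.

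In the Peg3 domain, Zim1, a zinc finger gene expressed from the maternal copy, showed a course like that of Peg3. Its level was 5.15, 12.4, 7.34, 2.51 and 1.96 CPM in vehicle and 3.92, 0.583, 1.64, 0.254 and 2.07 CPM with quinpirole. Vehicle replicate 2 was again the highest, and quinpirole replicates 2 and 4 the lowest. The log2 fold change was -1.30 (SE 0.45, limma adjusted p = 0.2998), which did not pass the test, on 217 and 67 reads. With group means subtracted, Zim1 followed Peg3 with r = 0.91 and rho = 0.92, and r = 0.84 without the 2 farthest libraries. This and 6 other pairs of neighbours were picked after the values were seen and get no test. The 10 genes named above as most like Peg3 reached r of 0.97 to 0.98. Zim1 was also lowest of its group in vehicle replicate 5 and in quinpirole replicate 4, where hair shaft RNA was nearly missing. The part of hair content in the likeness of Zim1 and Peg3 was not tested.

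In the H19 domain, Igf2, which encodes a fetal growth factor and is expressed from the paternal copy, had a low level in adult skin. It measured 3.27, 1.99, 1.44, 0.793 and 3.22 CPM in vehicle and 2.14, 1.89, 2.999, 5.60 and 3.36 CPM with quinpirole, or 80 and 123 reads in all. Quinpirole replicate 4, rich in muscle RNA, stood highest, and the groups overlapped widely. Igf2 had a log2 fold change of 0.43 (SE 0.29, limma adjusted p = 0.605). Igf2 followed H19 within groups at r = 0.71 and rho = 0.72 (r = 0.77 without the 2 farthest libraries), as a description. Nctc1, a non-coding RNA of the same region that is read in muscle, averaged 2.34 and 4.13 CPM (log2 fold change 0.61, limma adjusted p = 0.239), and its r with H19 was 0.34 with rho = 0.37, or 0.84 without the 2 farthest libraries. Igf2r, the receptor that clears IGF2 and is itself expressed from the maternal copy in the mouse, averaged 125 ± 11.1 and 99.5 ± 16.1 CPM (SD, n = 5 each; log2 fold change -0.33, SE 0.11, limma adjusted p = 0.2998).

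The remaining domains held Meg3, Mest, Ndn and Cdkn1c with their neighbours. Beside Meg3, the non-coding Rian and the retrotransposon-derived Rtl1 had log2 fold changes of -0.02 and -0.06, and followed Meg3 within groups at r = 0.64 and 0.62 (rho = 0.60 and 0.54), or 0.46 and 0.30 without the 2 farthest libraries. Beside Mest, its overlapping neighbour Copg2 had -0.14 (limma adjusted p = 0.570) and an r with Mest of 0.58 (rho = 0.60), or 0.92 without the 2 farthest libraries. Beside Ndn, Snrpn had -0.07 and ran against Ndn within groups (r = -0.71, rho = -0.79, and r = -0.63 without the 2 farthest), and Atp10a had 0.34 (95% interval 0.05 to 0.62, limma adjusted p = 0.363). Beside Cdkn1c, the long antisense RNA Kcnq1ot1 averaged 702 and 720 CPM (log2 fold change 0.05, limma adjusted p = 0.907). How strand was treated in counting is not given in the sources used here, so reads of Kcnq1ot1 and of the gene it overlaps may not be separable. Sgce and Gnas, from domains that hold none of the 10 genes, had log2 fold changes of 0.37 and 0.15 (limma adjusted p = 0.286 and 0.468).

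**Figure D4:**
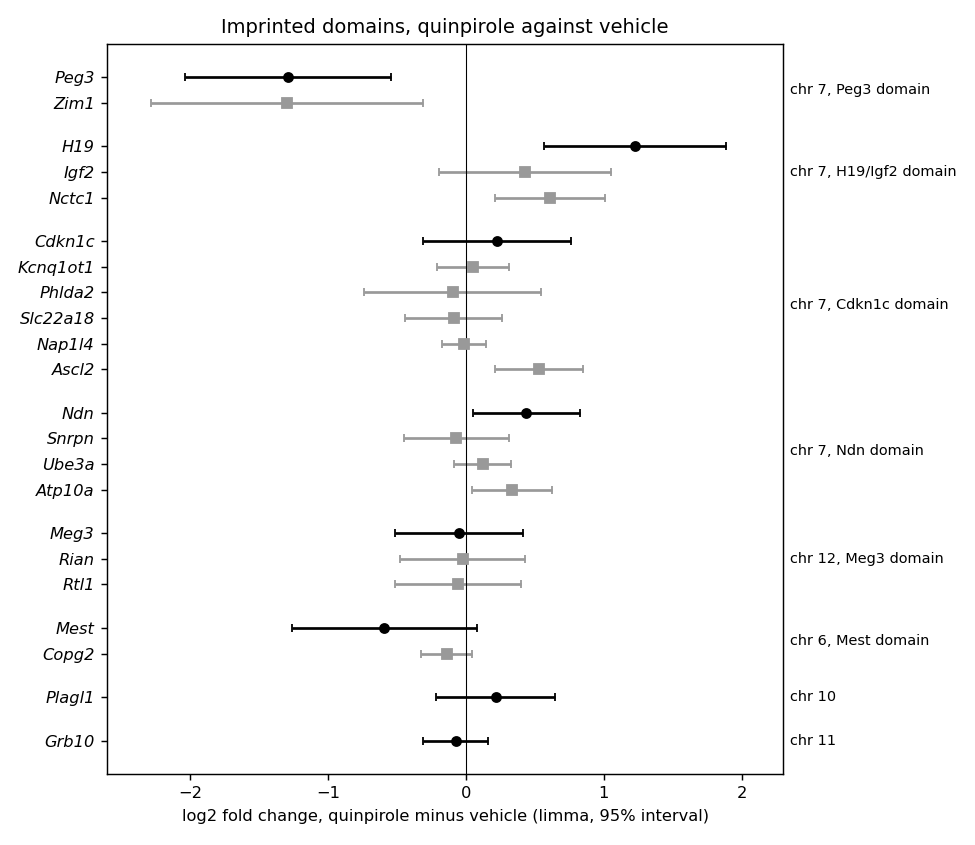
Log2 fold change of quinpirole minus vehicle with its 95% interval from limma (horizontal axis) for the 8 imprinted genes of the set (black circles) and a selection of tested neighbours in the same domains (grey squares), grouped by domain. Not every tested neighbour is drawn. Peg3 and Zim1 lie lowest, at -1.29 and -1.30, and H19 highest, at 1.23; for the 8 genes of the set the values are a description.

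A list of 14 proteins that set, keep or remove the methylation of imprints had 13 tested genes. It holds the zinc finger proteins ZFP57 and ZFP445, their partner TRIM28 and the DNA methyltransferases, and also the TET enzymes, which remove methylation. All 13 had log2 fold changes below 0, from -0.23 in Tet3 to -0.02, with a median of -0.13, where 7333 of all 14548 genes tested were below 0. By limma 0 of the 13 were called and 0 had an unadjusted p under 0.05, where 11.4% of all genes tested did. By edgeR and DESeq2 0 were called. The list mean was lowest of its group in vehicle replicate 5 (5.18) and quinpirole replicate 4 (5.11), which also held the least hair shaft RNA of their groups. The part of hair content in these values was not tested.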

How the data were processed

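Total RNA of whole skin was depleted of ribosomal RNA and made into directional libraries, according to the labels' protocols. Tools named in the submitters' processing notes, with the build mm10 and no role, are edgeR, RSEM 1.3.0, Bowtie2 and Trimmomatic 0.38. Annotation, strand setting and gene filter are not given there or in the labels. The deposited table holds a normalised signal for 17016 genes in 10 libraries. In every column 100% of values were whole multiples of 1 read, within 1e-06 of a read, and they equalled edgeR's CPM with TMM factors, so reads were recovered from them. No gene had fewer than 10 reads in all. All value columns were matched to samples by their labels.

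Tests used limma 3.58.1 with a mean-variance trend in R 4.3.3 on log2 of CPM plus 1, a scale that understates changes of low genes, for 14548 genes with at least 1 CPM in 5 libraries, two-sided, with Benjamini-Hochberg adjustment and calls at 0.05. Alternatives were DESeq2 1.42.0 and the quasi-likelihood test of edgeR 4.0.16, both on recovered reads, other pseudocounts, filters and scaling, a block for the replicate number, the mean of a tissue list as covariate, and each library left out. The fit was run on simulated reads with independent libraries and the same dispersion for every gene. This checked the code, as the simulation lacked the variation that genes of these libraries share. Relations over libraries used 100000 permutations within groups, and SciPy 1.17.1. The smallest chi-square per gene between libraries of a group was 6.55, so none repeated another. The members and gene lists were chosen with earlier results of these data known. Besides the 10 members, the genes named are Igf2, Igf2r, up to 8 other imprinted genes with the smallest p and the 10 genes most like Peg3, leaving out pseudogenes and provisional symbols, and up to 3 of the highest genes of a marker list. Rian, Rtl1, Snrpn, Kcnq1ot1, Sfrp2, Tet3 and the muscle stem cell markers other than Vcam1, Chodl and Myog were named after their values were seen. Positions come from GENCODE M21 and sequences from RefSeq, both on GRCm38. Gene symbols matched a single GENCODE gene in 95.9% of cases. Figures were drawn with matplotlib 3.10.9.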

Additional observations from a re-analysis of the deposited data

Results flagged for a closer look

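Of 46 groups of 5 libraries, from 23 imprinted genes named here or tested beside them, 3 held a library far from the other 4 of its group by Dixon's test at the 95% level. Chance flags about 5% of groups. Ascl2 was 1.97 CPM in vehicle replicate 3, above the rest of its group. Sgce was 10.4 CPM in vehicle replicate 4, above the other vehicle libraries and inside the quinpirole range. Copg2 was 122 CPM in vehicle replicate 3, below the other vehicle libraries and inside the quinpirole range. None of the 8 measured genes of the set had such a library.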

How the results depend on the processing

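The count of genes called was 3 by limma. It was 5 with a pseudocount of 0.1, 6 with no filter, 5 with a filter of 5 CPM, 1 with upper quartile scaling, 5 with edgeR, 219 with DESeq2, 15 with the hair shaft covariate and 27 with the dermal fibroblast covariate. With the skeletal muscle covariate it was 0, with 1211 genes at an unadjusted p under 0.05. Leaving out single libraries gave 0 to 10, the highest without vehicle replicate 5. With the replicate number as a block 0 genes were called, with 1576 at an unadjusted p under 0.05, but the numbers did not pair the samples: same-numbered libraries correlated at -0.238 to 0.22, and only replicate 1 matched its own number best. Of the other imprinted genes 0 were called in every alternative run. The 1 relation called became 0 to 1 when single libraries were left out. Of 176 values for the 8 genes, 175 stayed within 1 SD between replicates, and H19 with the muscle covariate, at 0.55, did not. For Plagl1, Cdkn1c, Grb10 and Meg3 that SD was larger than the log2 fold change itself, so this is a loose measure. Log2 fold changes altered by more than 1.5-fold in 12 of 22 alternatives for Meg3, 6 for Cdkn1c, 5 for Grb10 and 4 for Plagl1. For Mest they did so in 3, for Peg3 and H19 in 1 each and for Ndn in 0. The low counts of Zim1, Igf2 and Ascl2 limit their precision, as 5 libraries per group do for every gene.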
